A study of Oryza sativa with 6 samples.

Results

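Rice seedlings treated with the synthetic cytokinin benzyl aminopurine (BAP) were compared with seedlings given only the solvent. The comparison uses 4 of the 6 arrays of the series, 2 from BAP seedlings and 2 from control seedlings, chosen by their sample titles, and covers all target probe sets of the array. BAP was given at 50 µM, and the control seedlings received 0.1% dimethyl sulfoxide. The remaining 2 arrays came from seedlings treated with the auxin indole-3-acetic acid (IAA, 50 µM), which entered the estimate of spread and are shown for reference. All groups were light-grown seedlings of the indica variety IR64, 7 days old, kept at 28 °C with 14 h of light and 10 h of darkness on cotton soaked with water. In each group, tissue from 1 h and 3 h of treatment was mixed in equal parts before RNA was isolated, so a change confined to either time is diluted. The series design calls the 2 arrays of each group biological replicates.

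Cytokinins are plant hormones that promote cell division and shoot growth, delay leaf ageing and restrain root growth. They bind histidine kinase receptors, and the signal passes through phosphotransfer proteins to type-B response regulators, which are transcription factors. Among the direct targets of these factors are the type-A response regulators, which dampen the pathway, and cytokinin dehydrogenases break the hormone down.

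Of 34316 probe sets bright enough to be tested, 94 (0.274%) differed between BAP and control in limma at a Benjamini-Hochberg adjusted p under 0.05. With BAP 72 of them were higher (0.210% of those tested) and 22 lower (0.0641%). The change reached 2-fold in 58 of the raised sets and in 18 of the lowered sets, and it reached 4-fold in 11 raised and 0 lowered sets. All changes are on the log2(intensity + 16) scale, which understates the change of dim genes, and printed intensities are quantile-normalized values. In RNA from whole seedlings, fewer cells of a type and less RNA per cell cannot be told apart. Of the 94 probe sets, 70 carry the name of a single gene and stand for 69 genes. A symbol was available for 21 of those genes and a locus number alone for the other 48. The remaining probe sets were 23 with no gene name here and 1 that names several genes. The median change over all tested probe sets was -0.01 on the log2 scale.

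**Figure D1:**
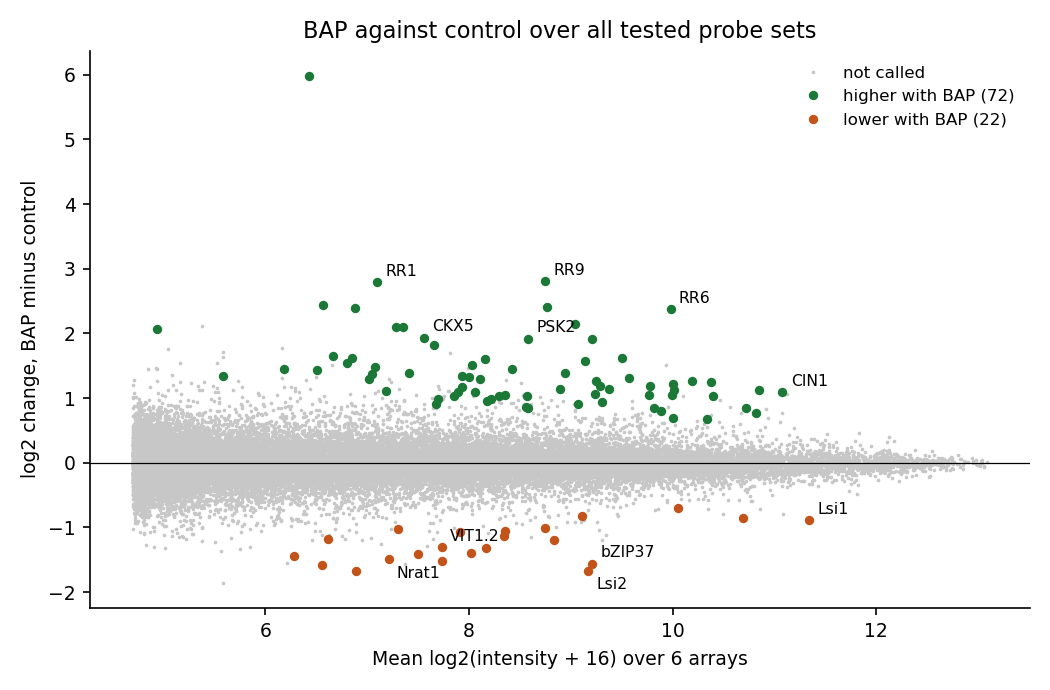
Each point is a probe set, placed by its mean log2(intensity + 16) over 6 arrays (horizontal) and its log2 change, BAP minus control (vertical). The 72 probe sets higher with BAP reach 5.98, whereas the 22 lower ones reach -1.67, and the called sets lie across most of the intensity range.

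Both BAP arrays were run on a different day from the control and IAA arrays, so BAP and run day cannot be told apart, and the fluidics modules differed from those of the control arrays too. The median deposited intensity was 18.7 and 23.1 on the BAP arrays and 21.9 and 18.4 on the control arrays. Spiked hybridization controls differed more between the BAP arrays, with geometric means of 526 and 290, against 377 and 396 on the control arrays. The ratio of 3′ to 5′ actin signal, a measure of RNA integrity, was 2.30 and 1.86 on the BAP arrays and 2.09 and 2.03 on the control arrays. For GAPDH the same ratio was 1.24 and 1.26 with BAP, 1.13 and 1.10 in the control and 1.28 and 1.16 with IAA. By the GAPDH ratio both BAP arrays thus lay above both control arrays. Across tested probe sets, which are not independent replicates, BAP array 1 correlated at 0.983 with BAP array 2, whereas it correlated at 0.985 and 0.984 with the control arrays. Both BAP arrays lay on the same side of both control arrays in 12916 of the 34316 tested probe sets (37.6%), so groups that do not overlap are common on these arrays. No tissue marker passed the test: 0 of 5 measured leaf photosynthesis genes, 0 of 3 root markers that are no transporters and 0 of 5 grain storage protein genes were called, and over all tested genes 0.407% were, so these counts say little about the markers. CAB2R, a chlorophyll-binding protein gene of leaves, had intensities of 9015 and 8077 with BAP and 8581 and 8479 in the control. CASP1, which marks the root endodermis, had 145 and 171 with BAP and 144 and 169 in the control. Of the 10 grain storage protein genes on the array, 5 were too dim to test. The globulin gene GLB was brightest, at 881 and 886 with BAP and 943 and 842 in the control.

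Type-A response regulators held the largest changes among named genes. Of 6 measured members, 5 rose with BAP and 0 fell, where 0.322% of the 16464 tested genes were called higher. Their median log2 change was 2.39, against -0.01 over all tested genes. RR9 had intensities of 2055 and 1909 with BAP, against 237 and 306 in the control. RR1 had 451 and 468 with BAP, against 60 and 46.2 in the control. RR9 was 6.99-fold and RR1 6.92-fold higher with BAP, log2 changes of 2.81 (SE 0.15, limma adjusted p = 0.000225) and 2.79 (SE 0.20, adjusted p = 0.000721). RR6 was the brightest of the 5, at 3309 and 3117 with BAP and 559 and 659 in the control. RR4 had 1701 and 1493 with BAP and 266 and 308 in the control. In both cases the lowest BAP value was several times the highest control value, and the log2 changes were 2.37 for RR6 (SE 0.11, adjusted p = 0.000207) and 2.41 for RR4 (SE 0.13, adjusted p = 0.000225). RR2 had 400 and 428 with BAP and 81.2 and 88.1 in the control, a log2 change of 2.10 (SE 0.15, adjusted p = 0.000721). The remaining member, RR5, was dim in the control and did not pass the threshold. Its intensities were 74.4 and 101 with BAP and 1.85 and 15.3 in the control, and its log2 change was 2.12 (SE 0.35, adjusted p = 0.0587). RR9 has a near-identical copy, RR10, with no probe set named for it here, so the RR9 signal may include RR10. RR41 and RR42, response regulators of type C, were set apart from the type-A list after their values were seen. RR42 had 672 and 737 with BAP and 705 and 707 in the control (log2 change -0.01, adjusted p = 0.998), and RR41 was too dim to test.

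Cytokinin dehydrogenases were the other cytokinin list with calls, with 3 of 4 measured members higher and 0 lower, where 0.322% of all tested genes were called higher. Their median log2 change was 1.45. CKX5 had intensities of 486 and 420 with BAP, against 104 and 108 in the control, a log2 change of 1.94 (SE 0.22, adjusted p = 0.0102). CKX4 had 477 and 527 with BAP and 156 and 193 in the control, a change of 1.45 (SE 0.15, adjusted p = 0.00796). CKX3 had 147 and 146 with BAP and 37.9 and 49.9 in the control, also a change of 1.45 (SE 0.20, adjusted p = 0.0297). For each of these genes both BAP arrays exceeded both control arrays. Lack of overlap between the groups held for all 94 called probe sets and for 37.6% of those tested. CKX11 was the brightest member, at 754 and 1011 with BAP and 588 and 706 in the control, and its change of 0.43 did not pass (SE 0.16, adjusted p = 0.519). CKX1 was below the intensity filter. The count of 3 fell to 1 without BAP array 1 and without control array 2, and to 0 without BAP array 2, without control array 1, with dim probe sets kept or with 1 common prior spread at all intensities, whereas the count of 5 type-A genes was 5 or 6 in each of the 15 alternatives.

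Lists of upstream genes held no call, which is near the share of 0.407% called among all tested genes and shows nothing particular to them. Of 6 measured receptor and phosphotransfer genes, 0 passed, and their median log2 change was -0.09. HK4, a histidine kinase receptor gene, had 442 and 566 with BAP and 239 and 272 in the control, with a change of 0.93 (SE 0.20, adjusted p = 0.139). The receptor genes HK3 and HK5 had changes of -0.48 (SE 0.15, adjusted p = 0.403) and -0.51 (SE 0.13, adjusted p = 0.263). AHP1 and AHP2, which encode phosphotransfer proteins, had changes of 0.03 and 0.06, and CHARK, a receptor-like kinase gene, had a change of -0.22. None of the 4 measured type-B regulators passed: RR21 had a change of -0.35, RR22 of 0.31, RR23 of 0.14 and RR24 of 0.29, with adjusted p of 0.325 or more. Among 8 measured LOG genes, whose enzymes release active cytokinins, 0 passed, and the changes ran from -0.37 for LOGL9 to 0.53 for LOGL6.

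**Figure D2:**
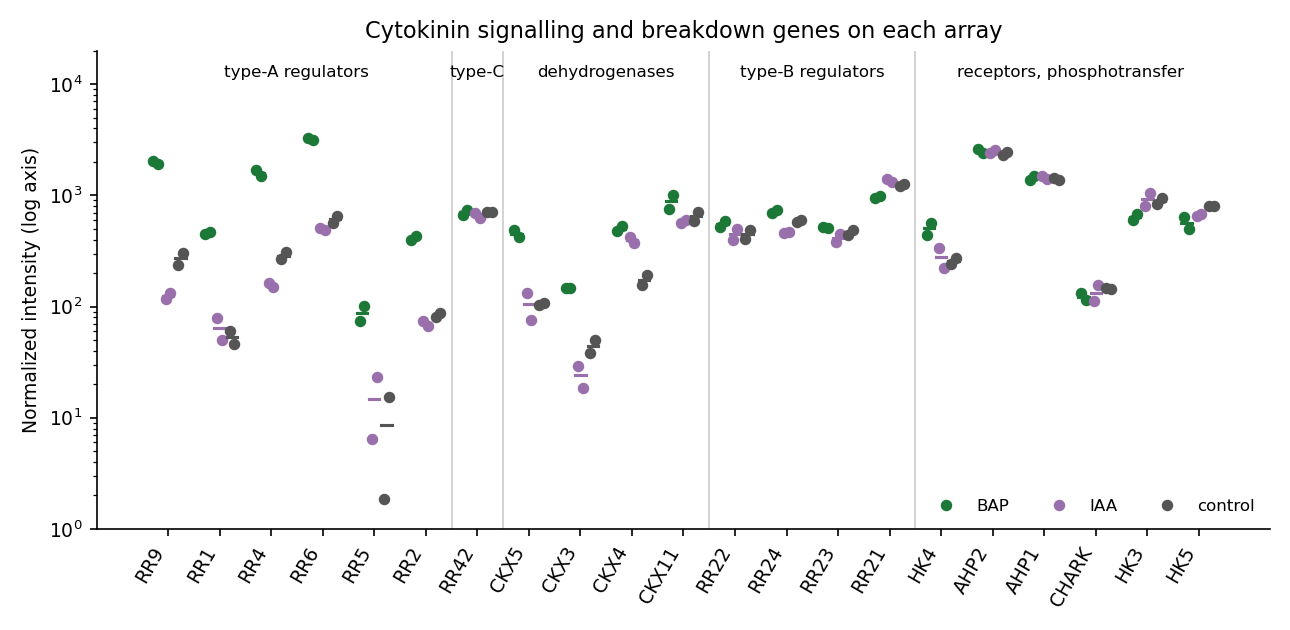
Normalized intensity on a log axis is shown for each measured gene of the cytokinin lists, with a point for each array and a short line at the group mean, for BAP, IAA and control. The type-A genes other than RR5, and CKX5, CKX3 and CKX4, passed the test, whereas the type-B, receptor and phosphotransfer genes did not. Both BAP arrays are clear of both control arrays in every called gene, as they are in 37.6% of all tested probe sets. Genes that did not pass can show this too, such as RR5, HK4 and CKX11.

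The other named genes with a probe set called higher with BAP act in peptide and steroid hormone synthesis, in the cell wall, and in sugar and glycolate metabolism. PSK2 encodes a precursor of phytosulfokine, a peptide hormone that promotes cell growth. It had intensities of 944 and 1065 with BAP, against 261 and 246 in the control (log2 change 1.92, SE 0.13, adjusted p = 0.000531). The other 2 measured precursors, PSK4 and PSK5, had changes of -0.14 and -0.04 and did not pass. CPD2, a cytochrome P450 gene of brassinosteroid synthesis, had 510 and 509 with BAP and 189 and 208 in the control (1.29, SE 0.14, adjusted p = 0.00837). It was 1 of 3 measured genes of brassinosteroid synthesis, and C6-oxidase and CYP724B1 had changes of 0.29 and -0.03. CPD1 has no probe set named for it here, and whether the CPD2 signal includes CPD1 was not tested. CIN1, a cell-wall invertase gene whose enzyme splits sucrose outside the cell, had 3868 and 4181 with BAP and 1721 and 2034 in the control (1.10, SE 0.11, adjusted p = 0.00588). GLO1, a glycolate oxidase gene of photorespiration, had 1170 and 1682 with BAP and 672 and 676 in the control (1.04, SE 0.16, adjusted p = 0.0392). A further probe set of GLO1 had 487 and 501 with BAP and 557 and 563 in the control, so the 2 probe sets of that gene disagree in sign and the direction of GLO1 is unsettled.

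Expansins loosen cell walls during growth, and 2 of 25 measured members rose with BAP and 0 fell, where 0.322% of all tested genes were called higher. The median log2 change of the list was 0.19, and it was 0.08 without control array 1 and 0.09 without BAP array 2. EXPA2 had intensities of 1861 and 1907 with BAP and 820 and 729 in the control (1.27, SE 0.12, adjusted p = 0.00531). EXPB11 had 2330 and 2728 with BAP and 1151 and 1151 in the control (1.12, SE 0.11, adjusted p = 0.00531). Next in the list came EXPB7, at 1816 and 2456 with BAP and 1099 and 954 in the control, and EXPB6, at 2589 and 3394 with BAP and 1663 and 1810 in the control. Neither passed, with changes of 1.03 (SE 0.17, adjusted p = 0.0509) and 0.77 (SE 0.13, adjusted p = 0.0661). The count of 2 became 0 without control array 2, with dim probe sets kept and with 1 common prior spread, and 4 with the deposited values left unscaled. Summed over the list, intensity was 21885 and 24611 with BAP and 17118 and 16805 in the control. The 29 measured enzymes of xyloglucan and cellulose metabolism gave 0 calls and a median of -0.10.

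Among genes known only by a locus number, the largest increases had sizes like those of the response regulators. LOC4340313 had intensities of 317 and 250 with BAP and 37.4 and 43.4 in the control, a log2 change of 2.40 (SE 0.17, adjusted p = 0.000721). LOC4329972 had 1376 and 1737 with BAP and 300 and 375 in the control, a change of 2.15 (SE 0.15, adjusted p = 0.000721). LOC4349585 had 578 and 399 with BAP and 104 and 96.3 in the control, a change of 2.10 (SE 0.23, adjusted p = 0.00837). The reference annotation lists these 3 genes and the next 3 as protein coding and gives no symbol for them. LOC4339516 had 1766 and 1714 with BAP and 448 and 449 in the control (1.92, SE 0.13, adjusted p = 0.000531). LOC4341925 had 583 and 661 with BAP and 133 and 201 in the control (1.83, SE 0.29, adjusted p = 0.0495). The sixth gene by size, LOC4335170, was lower, at 59.8 and 38.2 with BAP and 187 and 189 in the control (-1.67, SE 0.25, adjusted p = 0.0363). The largest change of all belonged to a probe set with no gene name here, Os.43596.1.S1_at, singled out after its values were seen. It had 962 and 1639 with BAP, against 0.850 and 8.13 in the control, and 19.0 and 2.15 with IAA. Its log2 change of 5.98 (SE 0.35, adjusted p = 0.000280) depends on the added constant because its control values are close to 0. This probe set cleared the intensity filter, which uses the mean over the 6 arrays, only through its BAP values. The next of these unnamed sets, OsAffx.9698.1.S1_x_at, had 214 and 312 with BAP and 35.8 and 33.1 in the control (2.45, SE 0.23, adjusted p = 0.00489). Among the unnamed sets that were lower, Os.46740.1.A1_at had 52.6 and 45.0 with BAP and 190 and 167 in the control (-1.59, SE 0.17, adjusted p = 0.00837). Altogether 17 unnamed probe sets were higher, by 0.85 or more, and 6 were lower, between -1.59 and -1.07. Another of the 17, with a log2 change of 2.07, also cleared the intensity filter only through its BAP values. That set had 56.7 and 73.1 with BAP, 2.61 and 1.93 with IAA and 2.21 and 4.23 in the control. A further 35 genes with a locus number rose by 0.68 to 1.65, and 7 had changes between -1.52 and -0.82.

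Some of the called genes lie close together in the gene order of a japonica reference annotation. How often tested genes lie as close is not given here, so the pairs describe position only and whether called genes cluster was not tested. LOC4350821 and LOC4350822 are direct neighbours and rose by 1.18 and 1.06 on the log2 scale. EXPA2 and LOC4327616, with 1 gene between them, rose by 1.27 and 1.30. RR1 and LOC4335932, with 4 genes between them, rose by 2.79 and 1.03. RR9 is the direct neighbour of CPD1, and CPD2 is the direct neighbour of RR10, but neither CPD1 nor RR10 has a probe set named for it here.

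Of the 22 probe sets that were lower with BAP, 7 name a gene with a symbol, and 3 of these genes encode root transporters of silicon and aluminium. Lsi2, which exports silicon from root cells toward the xylem, had intensities of 359 and 244 with BAP, against 1079 and 883 in the control (log2 change -1.67, SE 0.20, adjusted p = 0.0126). Nrat1, an aluminium uptake transporter, had 74.7 and 74.3 with BAP and 235 and 239 in the control (-1.49, SE 0.15, adjusted p = 0.00615). Lsi1, the channel through which silicon enters root cells, had 1868 and 1911 with BAP and 3744 and 3309 in the control (-0.89, SE 0.10, adjusted p = 0.00837). In each of these genes the higher BAP array stayed well below the lower control array. Lack of overlap was a condition for naming a called gene. The list of root transporters, which also holds nicotianamine synthases and a nitrate transporter partner, had 25 measured members. With BAP 3 fell and 0 rose, where 0.0850% of all tested genes were called lower, and 19 of the 25 had a change below 0, as did 52.6% of all tested genes. This list was chosen with earlier results of these data known, so the counts describe its members and are no independent support. The list median was -0.35, and it was -0.19 without BAP array 1, -0.24 without control array 2 and -0.53 without BAP array 2. The values ran from -1.67 for Lsi2 to 0.07 for NAR2.2 and PHT1-12. NRAMP5, a manganese and cadmium uptake transporter gene, had 388 and 360 with BAP and 745 and 697 in the control and did not pass (-0.92, SE 0.16, adjusted p = 0.0715). NRT2.3, a nitrate transporter gene, had 261 and 288 with BAP and 484 and 482 in the control (-0.78, SE 0.17, adjusted p = 0.142). Several bright members differed little, such as HAK5, a potassium transporter gene, at 5632 and 5891 with BAP and 5570 and 5720 in the control. Summed over the list, intensity was 30755 and 33704 with BAP and 36379 and 37926 in the control. The 3 root markers that are no transporters (CASP1, SHR1 and SCR1) summed to 263 and 317 with BAP and 278 and 307 in the control, with a median change of 0.01. The count of 3 was 0 without BAP array 2, without control array 1 or without control array 2, 2 without BAP array 1, 1 with dim probe sets kept or with 1 common prior spread, and 5 with the deposited values left unscaled.

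**Figure D3:**
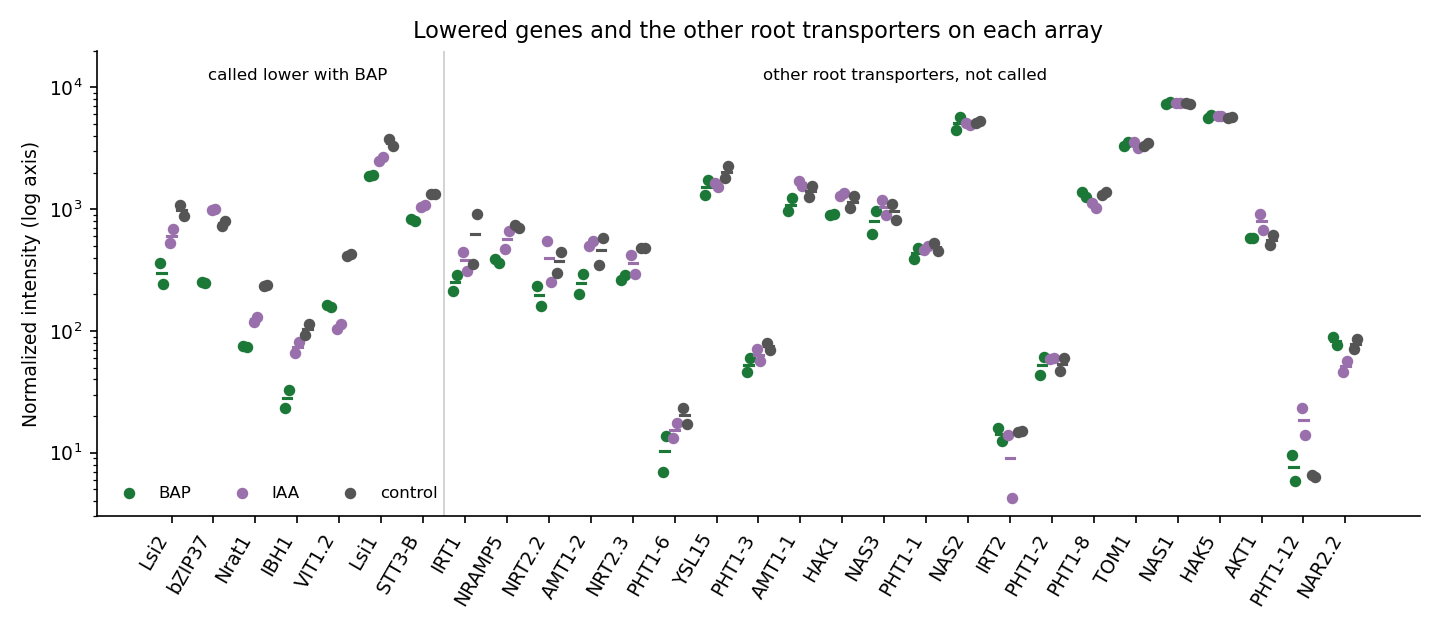
Normalized intensity on a log axis is shown for the 7 named genes called lower with BAP (left) and for the other root transporters (right), with a point for each array and a short line at the group mean, for BAP, IAA and control. Each of the 7 has both BAP arrays below both control arrays, which the rule for naming genes required. HAK5, NAS1 and TOM1 lie at about the same level in all groups.

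The other 4 named genes with a probe set called lower with BAP differ in function. VIT1.2, a transporter that moves iron into the vacuole, had intensities of 163 and 158 with BAP and 415 and 430 in the control (log2 change -1.31, SE 0.14, adjusted p = 0.00796). It was the only call among 15 measured genes of iron storage and chelation, whose median was -0.13. The gene bZIP37, also known as TGAL6, encodes a basic leucine zipper factor. It had 252 and 247 with BAP and 728 and 805 in the control (-1.56, SE 0.11, adjusted p = 0.000721). STT3-B, a catalytic subunit of the enzyme that attaches sugar chains to proteins, had 833 and 793 with BAP and 1321 and 1332 in the control (-0.70, SE 0.10, adjusted p = 0.0319). For IBH1, a helix-loop-helix gene whose product restrains cell elongation, the called probe set had 23.5 and 32.5 with BAP and 93.0 and 114 in the control (-1.45, SE 0.20, adjusted p = 0.0266). A brighter probe set of IBH1 had 196 and 200 with BAP and 151 and 167 in the control (0.29, adjusted p = 0.699), so the direction of IBH1 is unsettled.

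Of 38 lists, 30 held no called gene, and 16 different genes were called in the other 8. Over all tested genes 67 of 16464 were called (0.407%), so a count of 0 in a list is near the share over all genes and is no result about its members. Lsi1 was also the only call among 24 aquaporins, which had a median log2 change of -0.07. No member passed among 25 Aux/IAA repressors, 16 auxin response factors and 9 GH3 conjugating enzymes, the genes of the auxin pathway, and their medians lay between 0.00 and 0.03. The same held for 40 cyclin, CDK and histone genes (median -0.08), 8 chlorophyll synthesis genes (0.03), 25 ribosomal protein genes (0.01) and 41 heat shock genes (-0.04). The 9 abscisic acid genes had a median of 0.63 with 0 calls. Within that list, RAB21, a dehydrin gene, had 474 and 297 with BAP and 30.7 and 299 in the control, so the control arrays differed more from each other than the groups did. Without control array 1 the median of that list was -0.09. Among 15 JAZ repressors of jasmonate signalling, JAZ12 had 1666 and 1216 with BAP and 698 and 859 in the control and did not pass (0.86, SE 0.18, adjusted p = 0.140). ACS1, an ethylene synthesis gene, was dim, at 18.9 and 30.4 with BAP and 1.85 and 1.22 in the control (1.20, SE 0.26, adjusted p = 0.142). The 6 measured gibberellin enzymes had a median of 0.29 and 0 calls. CPS1, which encodes an early enzyme of gibberellin synthesis, had 445 and 364 with BAP and 229 and 247 in the control (0.72, SE 0.16, adjusted p = 0.168). Among 14 sugar transporters, with a median of 0.05 and 0 calls, SWEET11 and SWEET14, which export sucrose from cells, had values on opposite sides. SWEET11 had 2261 and 2075 with BAP and 1322 and 1541 in the control (0.60, SE 0.11, adjusted p = 0.0908), and SWEET14 had 157 and 133 with BAP and 231 and 216 in the control (-0.58, SE 0.14, adjusted p = 0.230). The 39 homeobox genes had a median of -0.11 and 0 calls. HOX22, a homeodomain leucine zipper gene, had 298 and 287 with BAP and 462 and 611 in the control (-0.83, SE 0.15, adjusted p = 0.0911).

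**Figure D4:**
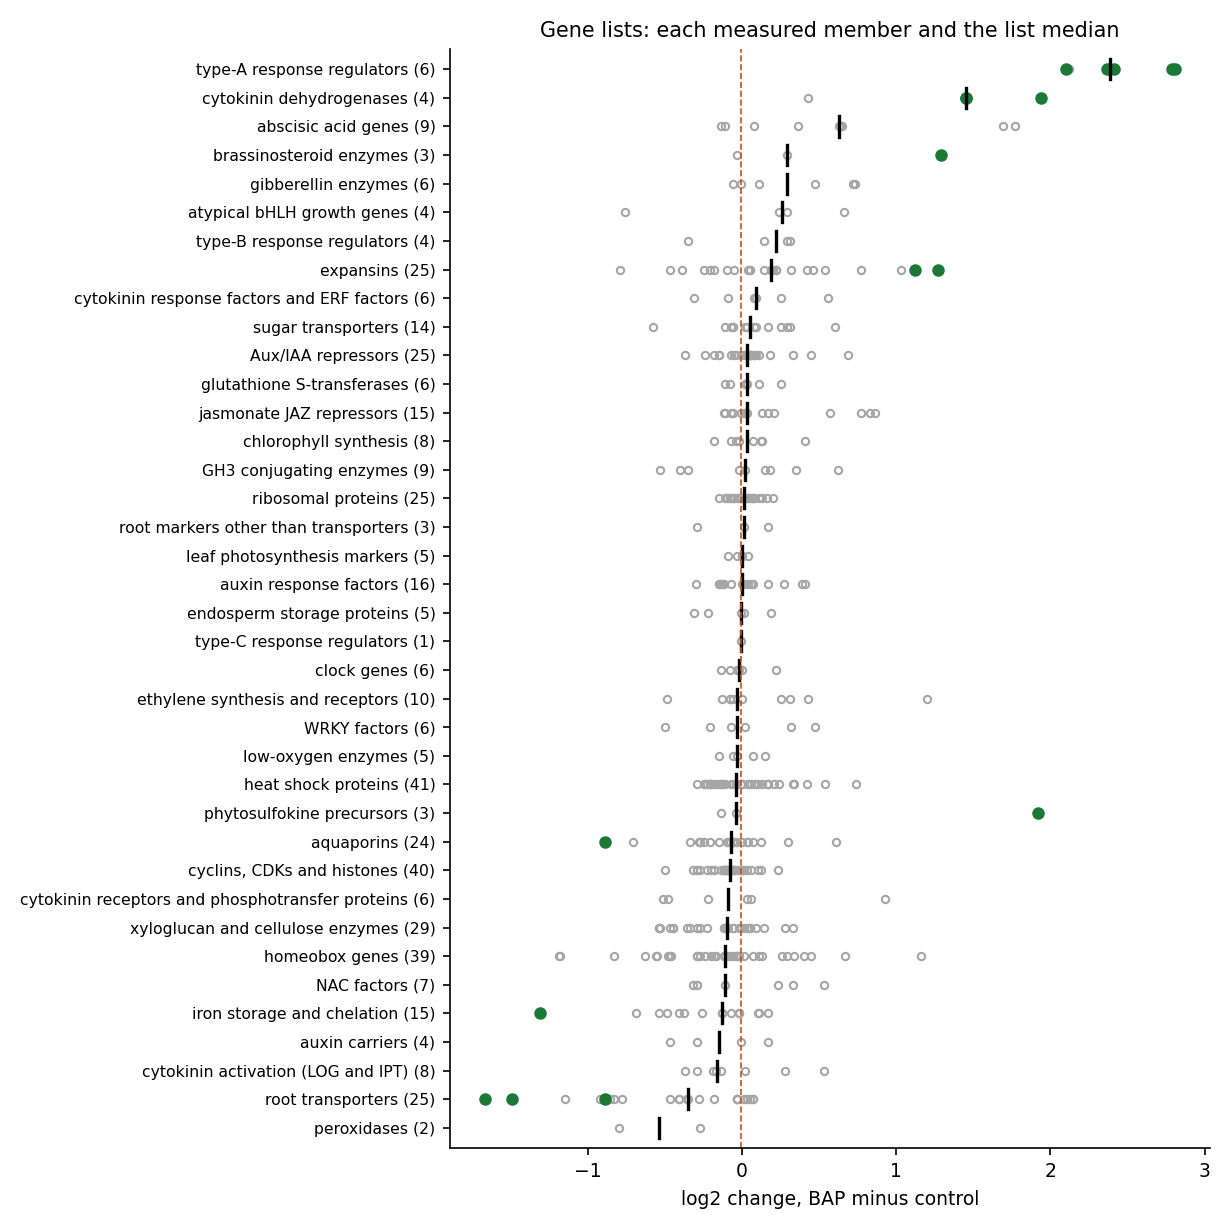
Each row is a gene list with its number of measured genes, each circle a member's log2 change, BAP minus control, filled where it passed an adjusted p under 0.05, and each black bar the list median. The dashed line is the median of all tested genes (-0.01); the type-A regulators and the dehydrogenases have the highest medians, 2.39 and 1.45.

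Just outside the threshold were genes in both directions. LOC4340140 had intensities of 415 and 540 with BAP and 223 and 224 in the control (log2 change 1.03, SE 0.16, adjusted p = 0.0507), close to EXPB7. JAMYB, a MYB factor gene known for its induction by jasmonate, had 69.5 and 75.0 with BAP and 239 and 252 in the control (-1.57, SE 0.25, adjusted p = 0.0539). LOC4329525 had 161 and 138 with BAP and 273 and 349 in the control (-0.98, SE 0.16, adjusted p = 0.0509). WOX11, a homeobox gene that drives crown root formation, had 187 and 299 with BAP and 506 and 618 in the control (-1.19, SE 0.20, adjusted p = 0.0652). It lay far higher with IAA, at 1868 and 1634, and the difference between BAP and IAA did pass (-2.80, adjusted p = 0.000237). PRX74, a peroxidase gene, had 365 and 391 with BAP and 643 and 703 in the control (-0.80, SE 0.13, adjusted p = 0.0576).

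The direct comparison of BAP with IAA asked which of the BAP changes also differed from the other hormone. Over all tested probe sets, 769 (2.24%) differed between BAP and IAA. Of the 94 called against control, 70 also differed between BAP and IAA, 68 of them in the same direction and 2 in the opposite one. The comparisons share the BAP arrays and so are not independent, and BAP and IAA arrays differ in run day as well. RR9 had 2055 and 1909 with BAP and 116 and 132 with IAA, a log2 difference of 3.84 (adjusted p = 1.33e-05). RR4 had 1701 and 1493 with BAP and 162 and 151 with IAA, a difference of 3.22 (adjusted p = 1.33e-05). For both genes the IAA arrays also lay below the control arrays, and their changes with IAA were -1.03 (adjusted p = 0.0159) and -0.81 (adjusted p = 0.0294). CKX4 stood out among the dehydrogenases, with 426 and 370 on the IAA arrays, close to its BAP values: BAP and IAA differed by 0.33 (adjusted p = 0.409), and IAA differed from control by 1.12 (adjusted p = 0.00982). EXPB11 had 2192 and 2047 with IAA, where BAP and IAA differed by 0.25 (adjusted p = 0.365) and IAA and control by 0.87 (adjusted p = 0.00655). VIT1.2 was lower still with IAA, at 104 and 113, and its BAP and IAA values differed by 0.51 (adjusted p = 0.112). Nrat1 was also lower than control with IAA, at 119 and 131 (-0.85, adjusted p = 0.0346). The gene bZIP37 had 992 and 998 with IAA, above both other groups, and differed by -1.93 between BAP and IAA (adjusted p = 9.39e-05). The 2 genes with opposite signs were LOC4344302 and LOC4336769, named after their values were seen. LOC4344302 had 202 and 178 with BAP, 1034 and 1194 with IAA and 98.2 and 81.8 in the control, and LOC4336769 had 198 and 185 with BAP, 360 and 363 with IAA and 95.5 and 94.4 in the control.

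**Figure D5:**
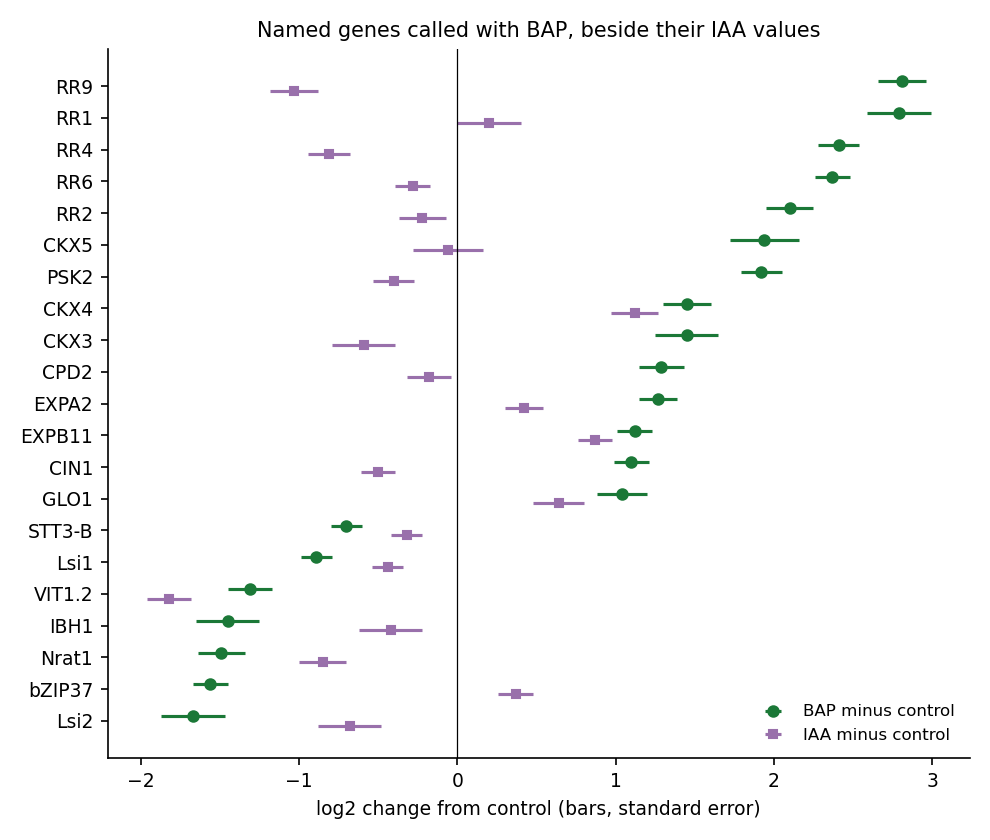
Log2 changes from control with standard errors are given for the 21 named genes called with BAP, circles for BAP minus control and squares for IAA minus control, which share the control arrays. The 5 called type-A regulators lie between 2.10 and 2.81 with BAP and between -1.03 and 0.20 with IAA. Of the 7 genes called lower with BAP, bZIP37 lies above 0 with IAA (0.37) and the others below it, between -1.82 for VIT1.2 and -0.32 for STT3-B. Among the IAA changes of these 7 genes, only those of VIT1.2 and Nrat1 passed the test. Among the genes called higher with BAP, the IAA changes of RR9, RR4, CKX4 and EXPB11 passed. The brighter probe set of IBH1, which is not drawn, was higher with IAA (0.87, limma adjusted p = 0.0222).

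How many probe sets passed depended on single arrays. The count of 94 was 32 without BAP array 1, 13 without BAP array 2, 15 without control array 1 and 18 without control array 2. Of the 21 named genes, 7 passed in all 15 alternatives, namely RR1, RR2, RR4, RR6, RR9, PSK2 and bZIP37. Another 4 of the 94 probe sets did so as well, namely those of LOC4340313, LOC4329972 and LOC4339516 and the unnamed Os.43596.1.S1_at.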

How the data were processed

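Seedling RNA of each sample was read on its own Affymetrix rice array, and titles gave the groups. The deposited table gives linear intensity per probe set, and how it was summarised is not given in the sources used here. Run records gave the day and module of each array, per the file headers. Of 57381 probe sets, 187 array controls were dropped. The rest entered as log2(intensity + 16), quantile normalized, and probe sets with a mean under the 40th percentile (4.70) were left out, which kept 34316. A limma 3.58.1 model (R 4.3.3) of the 3 groups used the 6 arrays together, with an intensity trend and a two-sided Benjamini-Hochberg adjusted p under 0.05. The number of arrays limits the precision. Python 3.11.15, pandas 2.3.3 and matplotlib 3.10.9 served for tables and plots.

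Names came from the platform annotation, matched by gene number to RefSeq synonyms of a japonica assembly: 22436 probe sets name 1 gene, 95 several and 34663 none here, for 17905 genes. The brightest probe set stands for a gene in lists. Members of gene families can share signal.

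The text names the largest called changes (up to 15 each way) with a symbol and no overlap between BAP and control arrays, up to 6 by locus number, all measured genes of the cytokinin lists except where summarised, up to 4 list members with the smallest p and the 2 nearest the threshold each way. The comparison, members and lists were chosen with earlier results of these data known, so counts within lists are description and no independent support.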

Additional observations from a re-analysis of the deposited data

How the results depend on the processing

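Each alternative changed 1 choice, and all 94 called probe sets kept their sign wherever they were tested. The count of 94 became 60 with arrays centred on their medians, 210 with the deposited values left unscaled, 14 with dim probe sets kept and 13 with 1 common prior spread, and it lay between 13 and 32 when a BAP or control array was left out and at 87 and 92 when an IAA array was. At an unadjusted p under 0.05 there were 2599 in the reported fit, and 2394, 1856, 3744 and 2572 under the first 4 of these settings. The 70 that also differed from IAA became 44, 135, 12 and 12 under the same 4 settings and lay between 12 and 24 without a BAP or control array and at 56 and 61 without an IAA array. The 16 called genes of the lists became 28 with unscaled values, 8 with dim probe sets kept and 7 with the common spread, and ranged over the left-out arrays from 7 (without BAP array 2 or either control array) to 17 (without either IAA array). Leaving out any array, an IAA array included, left 2 residual degrees of freedom in place of 3. The lone array of its group is then assumed to vary like the others. What caused the shifts in these counts was not tested. Among the 21 named genes, 80 of 315 gene and setting pairs lost the call and 235 kept it. Same-numbered arrays showed no shared deviation over the probe sets (r = 0.026 between BAP and control, -0.060 between BAP and IAA). With 2 arrays a group, this cannot tell whether same-numbered samples were handled together. With the replicate number as a block the count was 95, of which 79 were among the 94. Dim probe sets limit what can be seen: 22878 were not tested.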
